A study of Mus musculus with 12 samples.

Results

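The transcripts of 9 genes for sodium and bicarbonate transport of the proximal tubule were followed in whole kidneys of mice given the salt-inducible kinase inhibitor SK-124. The genes, chosen by name for their known role and with earlier results of these data known, were *Slc9a3*, *Slc4a4*, *Atp1b1*, *Fxyd2*, *Car4*, *Car14*, *Slc26a6*, *Slc26a1* and *Slc13a3*, 9 of the 55401 gene identifiers in the deposited tables, and all 9 passed the filter on low counts. The kidneys came from male C57BL6 mice aged 8 weeks. In the vehicle group, 6 mice received 1 intraperitoneal injection of 15% 2-hydroxypropyl-beta-cyclodextrin, and in the other group 6 mice received SK-124, an inhibitor selective for SIK2 and SIK3, by the same route at 40 mg/kg. Each mouse gave 1 library, no genotype other than the strain is given, and the time between injection and removal of the kidney for these libraries is not given in the sources used here.

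The proximal tubule reabsorbs most of the filtered sodium and bicarbonate. At the luminal membrane a sodium-proton exchanger secretes acid, membrane-bound carbonic anhydrases act on the bicarbonate that this acid titrates, and bicarbonate leaves the cell with sodium across the basolateral membrane, while the Na,K-ATPase keeps intracellular sodium low. Parathyroid hormone, whose signalling inhibits salt-inducible kinases, is a known inhibitor of proximal sodium-proton exchange, so these genes bear on whether kinase inhibition alone moves the transcripts of that machinery. *Atp1b1* and *Fxyd2* are transcribed along much of the nephron, and their values in whole kidney are not those of the proximal tubule alone.

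*Slc13a3* and *Car14* were lower in SK-124-treated mice, by 16.8% and 14.6% (n = 6 mice per group), and no other member passed the test. *Slc13a3* encodes a basolateral carrier of sodium with dicarboxylates, and *Car14* a carbonic anhydrase anchored in the membrane. The transcripts of the exchanger (*Slc9a3*), the basolateral bicarbonate exit (*Slc4a4*) and the pump subunits (*Atp1b1*, *Fxyd2*) did not pass the test. A gene was called at an FDR under 0.05 (Benjamini-Hochberg adjusted p of edgeR's quasi-likelihood test over 14159 genes). By this rule 0 of 9 members were higher, where 10.8% of all tested genes were, and 2 of 9 were lower, where 13.5% were, so that 22.2% of the members were called against 24.4% of all genes. At an unadjusted p under 0.05, 1 member was higher and 4 were lower. The share of all tested genes at that looser threshold was not computed, so this count cannot be set against other genes. The median log2 fold change was 0.0072 over the members and -0.005 over all tested genes. The members thus changed about as often as other genes did in these kidneys.

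The proximal tubule was well represented in every library. All 12 of its marker genes were detected and none was called. Their summed TPM (a level per transcript length, scaled to a fixed total) lay between 37331 and 49884 in vehicle mice and between 35093 and 47711 in SK-124-treated mice. *Kap*, an androgen-regulated gene of the proximal tubule, made up 83.5% to 89.5% of these sums, and the other 11 markers summed to between 5221 and 6226 TPM in vehicle mice and between 4613 and 5940 TPM in treated mice. On log2(TPM + 1) the median log2 fold change of all tested genes was itself -0.107, so sums in TPM are not directly comparable between the groups. In the edgeR test the median log2 fold change of the 12 markers was -0.0097. In whole tissue, fewer cells of a type and less RNA per cell cannot be told apart. Library totals were nearly equal, from 19350134 to 19771802 expected counts in the vehicle group and from 19244227 to 19530313 in the SK-124 group. The 10 genes with the most counts took from 39.9% to 43.2% of them in vehicle mice, from 44.4% to 46.8% in SK-124-treated mice 1 to 3 and from 38.6% to 40.2% in mice 4 to 6. Among the members, vehicle mouse 3 most often held an extreme value of its group, the lowest in 4 genes and the highest in 3. Vehicle mouse 5 was next, with the lowest in 3 and the highest in 2. Marker sums were also compared in CPM (counts scaled to the library total after TMM normalization). On that scale vehicle mouse 3 was the highest of its group for the endothelial and the immune and blood markers. It was the lowest for those of the thick ascending limb, distal convoluted tubule, intercalated cells and podocytes. In summed TPM its endothelial markers, at 150, were below those of vehicle mouse 5, at 155. The summed proximal tubule markers of vehicle mouse 3 were the highest of the group with *Kap*. Without *Kap*, at 5646 TPM, they were below the group median of 5794.

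The levels per transcript length differed widely among the members. In vehicle mice the median was 4455 TPM for *Fxyd2* and 580 for *Atp1b1*, followed by 112 for *Slc13a3*, 108 for *Car4* and 79.1 for *Slc4a4*. The lower members had medians of 53.6 TPM for *Slc26a1*, 39.9 for *Car14*, 22.2 for *Slc9a3* and 5.56 for *Slc26a6*. Among neighbours in this order, *Slc13a3* and *Car4* had overlapping ranges, with *Slc13a3* higher in 4 of 6 mice, as had *Slc4a4* and *Slc26a1*, with *Slc4a4* higher in 5 of 6. In SK-124-treated mice *Car4*, at a median of 95.8 TPM, stood above *Slc13a3*, at 78.8, in 5 of 6 mice, and the ranges of *Car4*, *Slc13a3*, *Slc4a4* and *Slc26a1* overlapped from each to the next. The other positions were the same in both groups.

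**Figure D1:**
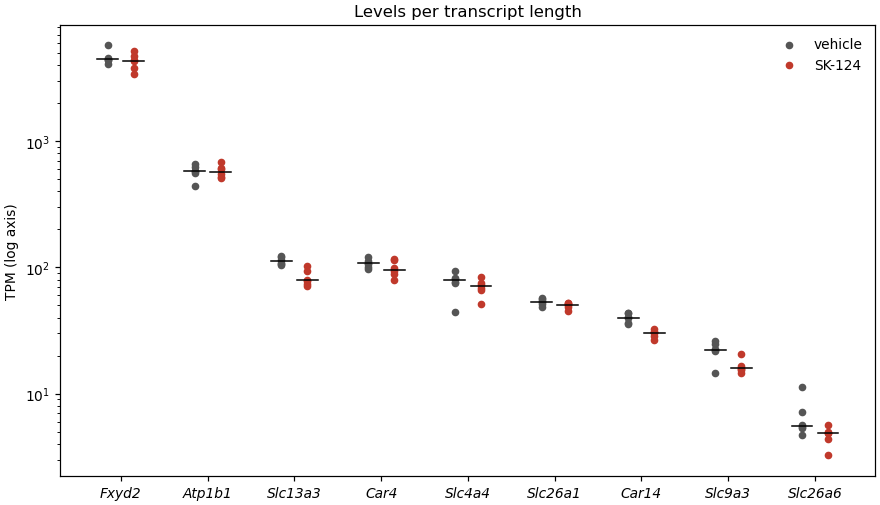
TPM of the 9 transport genes (log axis) in each of the 6 vehicle mice (grey) and 6 SK-124-treated mice (red), ordered by the vehicle median, with a black line at each group's median. *Fxyd2* stands highest, at a vehicle median of 4455 TPM, and *Slc26a6* lowest, at 5.56 TPM.

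*Slc9a3* encodes NHE3, the luminal sodium-proton exchanger that takes up sodium in exchange for acid. The gene (ENSMUSG00000036123.8) lies on the plus strand of chromosome 13, from 74121457 to 74169442 in GENCODE M21 (GRCm38). Its lowest, median and highest CPM (counts scaled to the library total after TMM normalization) were 73.5, 101 and 114 in vehicle mice and 73.2, 86.1 and 100.05 in SK-124-treated mice. The lowest vehicle value, that of mouse 3, fell among the lowest treated values, and the other 5 vehicle mice had from 98.0 to 114 CPM, a range that only treated mouse 4 entered. The means were 99.3 ± 14.0 (SD, n = 6) and 85.7 ± 11.0 (SD, n = 6), a log2 fold change of -0.21 (standard error 0.098, 95% interval -0.42 to -0.0061) with an FDR of 0.130 by edgeR, which missed the threshold. Without vehicle mouse 3 the log2 fold change was -0.29 with an FDR of 0.0124, which passed it. Under TMM scaling the call thus turned on that mouse. With any other mouse left out the gene was not called, and the fall was smallest without vehicle mouse 5 (log2 fold change -0.17, FDR = 0.265, edgeR). Library totals (FDR = 0.0256, edgeR) and limma on log2(TPM + 1) (FDR = 0.0349) called the gene lower with all mice included. On these scales the median log2 fold change of all tested genes was itself -0.118 and -0.107. *Slc9a3* was below the vehicle median in 6 of 6 treated mice.

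*Slc4a4* encodes NBCe1, which carries bicarbonate with sodium out of the cell at the basolateral membrane. In vehicle mice its lowest, median and highest CPM were 333, 511 and 572, against 442, 484 and 709 in SK-124-treated mice. The groups overlapped over most of their range: vehicle mouse 3 was again the lowest of all, and treated mouse 2 the highest. The means of 489 ± 82.8 (SD, n = 6) and 526 ± 102 (SD, n = 6) gave a log2 fold change of 0.10 (95% interval -0.16 to 0.37, FDR = 0.601, edgeR). Without vehicle mouse 3 it was 0.01 and without SK-124-treated mouse 2 it was 0.0001, so the small positive value rested on these mice. The log2 fold change was 0.24 with SK-124-treated mice 1 to 3 alone and -0.04 with mice 4 to 6 alone, both short of the threshold.

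Within each library the level of *Slc4a4* per molecule of *Slc9a3* transcript, which does not depend on scaling between libraries, was 3.43 ± 0.296 in vehicle mice and 4.30 ± 0.852 in treated mice (SD, n = 6 each). The lowest, median and highest of these TPM ratios were 3.02, 3.49 and 3.78 against 3.34, 4.40 and 5.30. Treated mice 1, 2, 5 and 6 lay above every vehicle mouse, while treated mice 3 and 4 lay below the vehicle median. The difference of 0.31 on the log2 scale had p = 0.0498 in a two-sided exact permutation test and 0.124 after Benjamini-Hochberg adjustment over the 5 ratios tested, where 6 against 6 mice can reach 0.00216.

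The Na,K-ATPase needs a beta subunit to reach the membrane, and FXYD proteins modulate it. *Atp1b1*, for the beta 1 subunit (ENSMUSG00000026576.12, chromosome 1, 164437109 to 164458355, minus strand), had lowest, median and highest CPM of 1211, 1408 and 1505 in vehicle mice and of 1454, 1567 and 1651 in SK-124-treated mice. The 4 treated mice 2, 3, 4 and 5 stood above every vehicle mouse, and 6 of 6 stood above the vehicle median. The means were 1391 ± 97.8 (SD, n = 6) and 1562 ± 77.6 (SD, n = 6), with a log2 fold change of 0.17 (standard error 0.061, 95% interval 0.039 to 0.296) and an FDR of 0.0539 by edgeR, just short of the threshold. DESeq2 gave an FDR of 0.0141 and edgeR with RLE scaling 0.0490, so the call for *Atp1b1* depended on the method. On the scale of library totals alone the log2 fold change was 0.05 (FDR = 0.664).

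*Fxyd2*, for the gamma subunit that lowers the sodium affinity of the pump (ENSMUSG00000059412.7, chromosome 9, 45399669 to 45410278, plus strand), was the most abundant member. Between lowest and highest, with the median in the middle, the CPM values were 2041, 2206 and 3087 in vehicle mice and 2154, 2339 and 2581 in SK-124-treated mice. The highest value of all belonged to vehicle mouse 3, and the treated range lay within the vehicle range. The log2 fold change was 0.02 (95% interval -0.17 to 0.22, FDR = 0.880, edgeR), and without vehicle mouse 3 it was 0.12 with an FDR of 0.156.

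**Figure D2:**
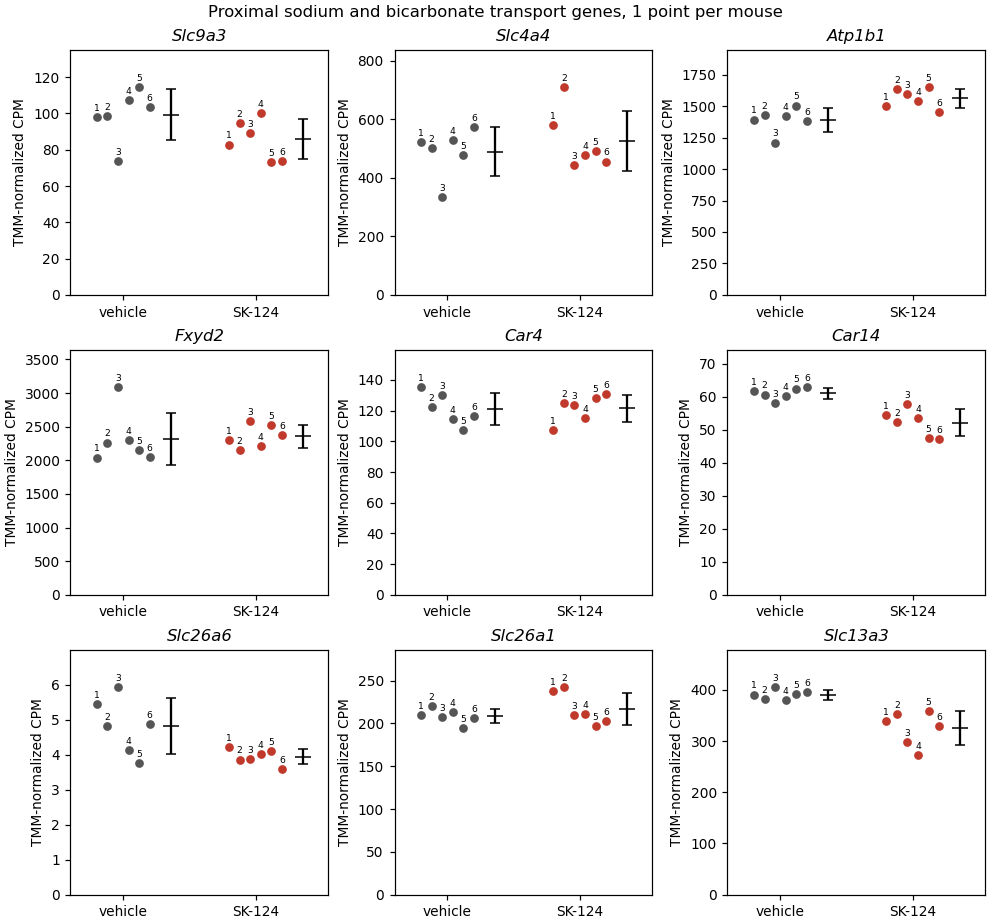
TMM-normalized CPM of each member, 1 point per mouse numbered as labelled, in 6 vehicle mice (grey) and 6 SK-124-treated mice (red); the bar beside each group is the mean with its SD, and every axis starts at 0. The groups are separate for *Car14* and *Slc13a3* and overlap for the other 7 genes, and vehicle mouse 3 is the lowest of its group for *Slc9a3*, *Slc4a4*, *Atp1b1* and *Car14* and the highest for *Fxyd2*, *Slc26a6* and *Slc13a3*.

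*Car14*, for the membrane-spanning carbonic anhydrase XIV, was lower in SK-124-treated mice without overlap. The gene (ENSMUSG00000038526.14) lies on chromosome 3 from 95897768 to 95904691, minus strand. Its lowest, median and highest CPM were 58.1, 61.2 and 62.9 in vehicle mice and 47.1, 52.9 and 57.8 in SK-124-treated mice. All treated mice lay below all vehicle mice, the nearest being treated mouse 3 and vehicle mouse 3. The means were 61.0 ± 1.77 (SD, n = 6) against 52.1 ± 4.12 (SD, n = 6), and the log2 fold change was -0.23 (standard error 0.056, 95% interval -0.35 to -0.11, FDR = 0.00573, edgeR). Of all tested genes 6.65% had every treated mouse below every vehicle mouse, as 2 of the 9 members did. With SK-124-treated mice 1 to 3 alone the log2 fold change was -0.15 and the call was lost (FDR = 0.117), while with mice 4 to 6 alone it was -0.30 (FDR = 0.00585). These fits held 3 treated mice each and called 2298 and 2446 genes, against 3453 in the main analysis. The estimates from these fits were not compared with each other.

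*Car4*, for carbonic anhydrase IV, which is tethered to the same membranes by a lipid anchor (ENSMUSG00000000805.18, chromosome 11, 84957786 to 84966044, plus strand), was nearly equal in both groups. The lowest, median and highest values were 107, 119 and 135 CPM in vehicle mice and 107, 124 and 131 in SK-124-treated mice, and the ranges coincided almost fully. The log2 fold change was 0.01 with a 95% interval from -0.13 to 0.14 (FDR = 0.950, edgeR), whose lower end lies above the estimate of -0.23 for *Car14*. The TPM ratio of *Car14* to *Car4* was 0.370 ± 0.0366 (SD, n = 6) in vehicle mice and 0.309 ± 0.0405 (SD, n = 6) in treated mice, and 6 of 6 treated mice lay below the vehicle median. This direct comparison of the 2 enzymes gave a difference of -0.27 on the log2 scale with p = 0.0217 in a two-sided exact permutation test, and 0.108 after adjustment over the 5 ratios. With SK-124-treated mice 1 to 3 alone the difference was -0.16 and with mice 4 to 6 alone -0.38, with adjusted exact permutation p of 0.417 and 0.119. A different response of the 2 carbonic anhydrases was thus not established.

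*Slc26a6* and *Slc26a1* belong to a family of anion exchangers. *Slc26a6*, for the luminal exchanger of chloride with oxalate, formate or bicarbonate (ENSMUSG00000023259.16, chromosome 9, 108853283 to 108913049, plus strand, which GENCODE marks as a fragmented locus), was by far the least abundant member, with 66 to 116 expected counts per mouse. Its lowest, median and highest CPM were 3.75, 4.84 and 5.92 in vehicle mice and 3.60, 3.94 and 4.23 in SK-124-treated mice. The treated mice were tightly grouped, 1 of them below every vehicle mouse and 6 of 6 below the vehicle median. The log2 fold change of -0.29 was the most negative among the members but had a standard error of 0.113 and an FDR of 0.0752 by edgeR. Without vehicle mouse 5, the lowest of its group, it was -0.35 with an FDR of 0.0252, and without vehicle mouse 3, the highest, it was -0.22 with an FDR of 0.144. The transcript length that RSEM assigned to *Slc26a6* varied between mice from 652 to 1146 bases, which enters its TPM but not its CPM.

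*Slc26a1*, for the basolateral exchanger of sulfate with bicarbonate or oxalate (ENSMUSG00000046959.16, chromosome 5, 108669878 to 108675569, minus strand), had lowest, median and highest CPM of 195, 209 and 220 in vehicle mice and of 197, 210 and 242 in SK-124-treated mice. The groups overlapped, with treated mice 1 and 2 above every vehicle mouse. The log2 fold change was 0.05 (95% interval -0.07 to 0.18, FDR = 0.557, edgeR). With mice 1 to 3 alone it was 0.14 and with mice 4 to 6 alone -0.03, both short of the threshold. The TPM ratio of *Slc26a6* to *Slc26a1* was 0.125 ± 0.0540 and 0.0931 ± 0.0140 (SD, n = 6 each), a difference of -0.36 on the log2 scale (two-sided exact permutation p = 0.143, adjusted 0.238). Without vehicle mouse 3 that difference was -0.16 (exact permutation p = 0.294, adjusted 0.368), and as a ratio of expected counts, which leaves out the varying length of *Slc26a6*, it was -0.32 with all mice (exact permutation p = 0.0108, adjusted 0.0541).

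*Slc13a3* encodes NaDC3, which brings succinate, alpha-ketoglutarate and other dicarboxylates into the cell with sodium from the blood side. The gene (ENSMUSG00000018459.15) lies on chromosome 2 from 165405028 to 165473230, minus strand. Its lowest, median and highest CPM were 379, 391 and 405 in vehicle mice and 272, 335 and 358 in SK-124-treated mice. Every treated mouse lay below every vehicle mouse, with treated mouse 4 the lowest and treated mouse 5 the highest of its group. The means were 391 ± 9.60 (SD, n = 6) and 325 ± 33.4 (SD, n = 6), so that the treated mice also varied more, and the log2 fold change was -0.27 (standard error 0.064, 95% interval -0.40 to -0.13, FDR = 0.00527, edgeR). *Slc13a3* was the one member called in the main analysis and in all 24 alternatives, with log2 fold changes from -0.45 to -0.22. Its level per transcript length fell from 113 ± 7.65 to 83.2 ± 12.6 TPM (SD, n = 6 each). On log2(TPM + 1) the median log2 fold change of all tested genes was itself -0.107, so the size of this fall is not comparable to that in CPM.

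**Figure D3:**
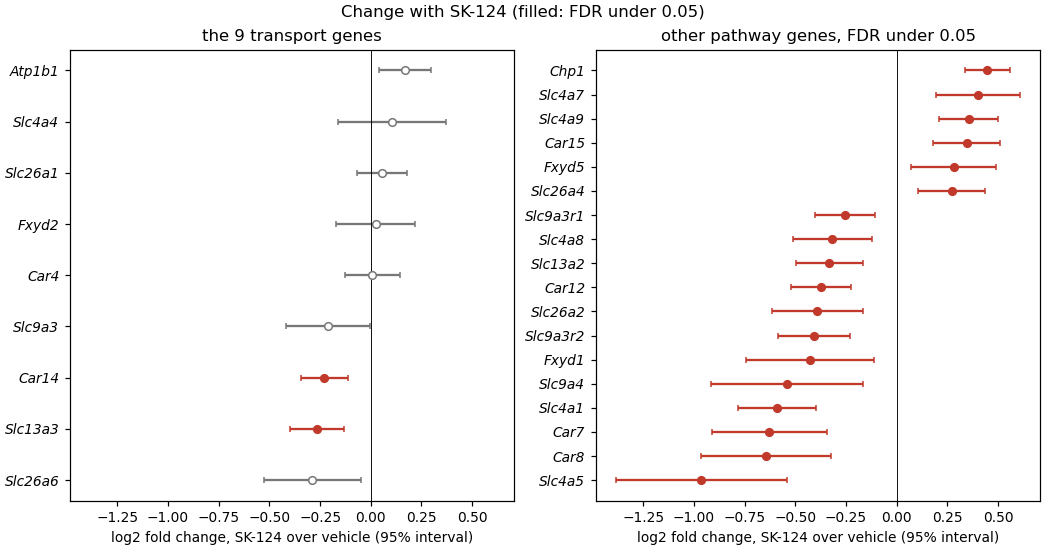
Log2 fold change of SK-124 over vehicle with its 95% interval (edgeR, n = 6 mice per group) for the 9 members on the left and for the 18 called genes of the related lists on the right; filled red points have an FDR under 0.05 and open grey points do not. *Car14* and *Slc13a3* are the filled points among the members, at -0.23 and -0.27.

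The choice of scaling moved the members with small changes. On library totals alone the median of all tested genes moved to -0.118, and 20.3% of the called genes were higher, against 44.5% with TMM scaling. On that scale *Slc9a3* (-0.33, FDR = 0.0256) and *Slc26a6* (-0.40, FDR = 0.0177) were called lower beside *Car14* and *Slc13a3*, and *Slc4a4*, *Fxyd2*, *Car4* and *Slc26a1* changed sign without being called. When the libraries were instead scaled to equal mean log2 counts of the 12 proximal tubule markers, an alternative chosen after seeing the data, *Slc13a3* (-0.27, FDR = 0.00321) and *Car14* (-0.23, FDR = 0.0158) remained lower. *Slc9a3* was at -0.22 on that scale (FDR = 0.151) and *Atp1b1* at 0.16 (FDR = 0.0924). The markers had a median log2 fold change of -0.0097 in the main analysis, and none was called. Scaling to them therefore had to give values close to the main ones, and these add no separate support. The part of proximal tubule content in the fall of *Slc13a3* and *Car14* was not tested.

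**Figure D4:**
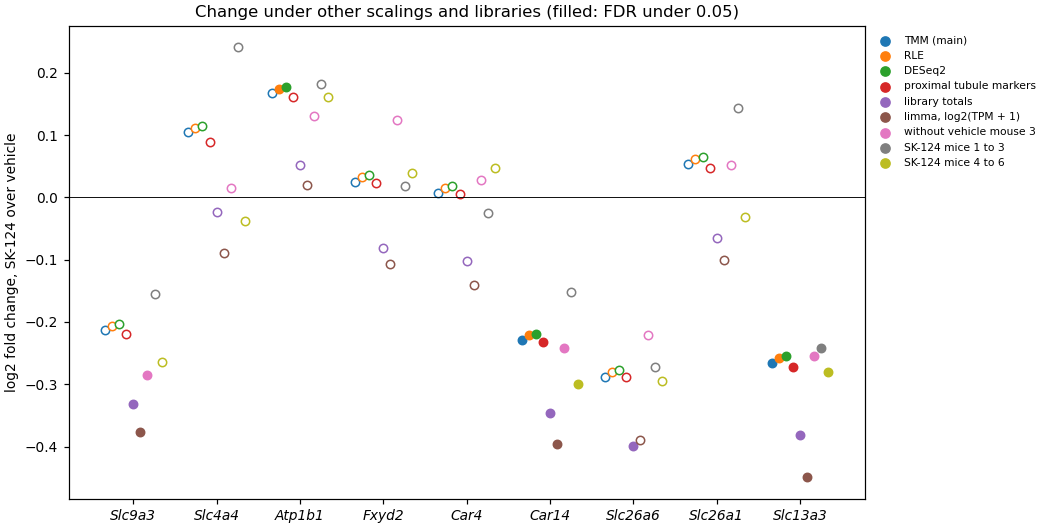
Log2 fold change of each member under the main TMM scaling and 8 alternatives, with filled points at an FDR under 0.05 and open points above it. *Slc13a3* is filled throughout, *Car14* in all but SK-124-treated mice 1 to 3 alone, and library totals and TPM values lie below the other settings for most genes.

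Annotated neighbours could share reads with some members, since the use of strand in counting is not stated in the sources used here. *Nme7* overlaps *Atp1b1*, *Aph1a* overlaps *Car14* and *Idua* overlaps *Slc26a1*, each on the opposite strand. None of these 3 neighbours was called (FDR of 0.236, 0.366 and 0.453 by edgeR). The antisense gene *Gm14437*, which overlaps *Slc13a3*, had 0 counts in all 12 mice. The identifier of *Slc4a4* in the files carries another version than in GENCODE M21, so no coordinates are given for it.

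The promoters of the 2 genes that fell, and of *Slc9a3* as the exchanger that parathyroid hormone acts on, are shown because salt-inducible kinases act on CREB-regulated coactivators, whose partner CREB binds the cAMP response element. The sequences are those of RefSeq (GRCm38.p6), read 5′ to 3′ on the strand of the gene, from 250 bases before the annotated start to 50 after it. Capitals mark matches to the motifs searched on both strands: the cAMP response element TGACGTCA, its half-site TGACG, which the full element contains, the E-box CACGTG and the glucocorticoid half-site AGAACA. They cover chr3:95904636-95904935 on the minus strand for *Car14*, chr2:165473148-165473447 on the minus strand for *Slc13a3* and chr13:74121163-74121462 on the plus strand for *Slc9a3*.
Car14: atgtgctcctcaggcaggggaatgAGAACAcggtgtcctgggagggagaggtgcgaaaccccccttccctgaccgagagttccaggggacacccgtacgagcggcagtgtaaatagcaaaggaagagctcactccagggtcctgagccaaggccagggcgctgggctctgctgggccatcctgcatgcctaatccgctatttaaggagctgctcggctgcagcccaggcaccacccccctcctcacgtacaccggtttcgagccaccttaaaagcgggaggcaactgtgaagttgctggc
Slc13a3: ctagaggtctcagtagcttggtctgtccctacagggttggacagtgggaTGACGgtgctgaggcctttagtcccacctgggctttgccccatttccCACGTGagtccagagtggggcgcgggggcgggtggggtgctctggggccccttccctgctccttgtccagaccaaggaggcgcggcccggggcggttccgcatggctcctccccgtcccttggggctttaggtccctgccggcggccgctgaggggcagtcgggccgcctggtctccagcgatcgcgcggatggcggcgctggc
Slc9a3: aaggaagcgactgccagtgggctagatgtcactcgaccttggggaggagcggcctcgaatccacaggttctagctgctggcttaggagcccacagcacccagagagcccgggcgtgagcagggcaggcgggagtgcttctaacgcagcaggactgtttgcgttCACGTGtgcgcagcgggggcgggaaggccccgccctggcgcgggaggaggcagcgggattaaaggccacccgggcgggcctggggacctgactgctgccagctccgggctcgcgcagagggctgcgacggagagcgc

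The full cAMP response element was in none of the 10 RefSeq promoters of the 8 members that matched, and it was in 1.79% of all 32851 promoters of the same length. *Slc13a3* held the half-site at position -201, a motif found in 20.8% of all promoters, and the E-box at -154, found in 7.15%. *Car14* held AGAACA at -226, found in 6233 of the 32851. *Slc9a3* held the E-box at -87, and so did 1 of the 2 promoters of *Slc26a1*, at -47, with AGAACA at -115. The promoters of *Atp1b1*, *Car4*, *Slc26a6* and *Slc4a4* held none of these letters. The GC content was 61.0% for *Car14*, 69.3% for *Slc13a3* and 68.7% for *Slc9a3*, above the median of 52.7% over all promoters. The 2 genes that fell shared none of the motifs searched.

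Related genes were taken from lists of the same families. Of 56 listed genes 45 were tested, and 6 were higher and 12 lower, 40% in all against 24.4% of all tested genes, with a median log2 fold change of -0.10. On library totals 2 were higher and 20 lower, so the balance of directions depended on scaling, although none of the 18 called genes changed sign under any alternative. Of these 18 genes, *Slc9a3r2*, *Chp1*, *Slc4a1*, *Slc4a5*, *Car7* and *Car12* were called under every alternative. The calls for *Fxyd5*, *Slc4a7*, *Car15* and *Slc26a4*, all higher, were lost on library totals and under other alternatives. Those for *Slc9a3r1* and *Slc13a2* were lost only with SK-124-treated mice 1 to 3 alone, and that for *Car8* only with mice 4 to 6 alone. *Slc26a2* lost its call with each of these sets of mice alone, and *Slc4a9* with limma on log2(TPM + 1) and on log2(TPM + 0.1). The sets of mice 1 to 3 and 4 to 6 held 3 treated mice each, and fewer genes were called with them (2298 and 2446 against 3453).

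Among the partners of *Slc9a3*, the scaffolds NHERF1 and NHERF2 were lower, and 3 further partners were not called. *Slc9a3r1*, for NHERF1, fell from 218 ± 20.3 to 183 ± 15.9 CPM (SD, n = 6 per group), or -0.25 on the log2 scale with an FDR of 0.0125 by edgeR, and *Slc9a3r2*, for NHERF2, from 46.7 ± 5.42 to 35.2 ± 4.08 (log2 fold change -0.41, FDR = 0.00175), with no overlap between the groups. *Chp1*, for a calcineurin-like protein that binds sodium-proton exchangers, rose from 84.0 ± 5.68 to 114 ± 3.78 CPM (log2 fold change 0.45, FDR = 6.74e-06), also without overlap. *Slc9a4*, for an exchanger with very few counts here, was at 1.66 and 1.14 CPM (log2 fold change -0.54, FDR = 0.0346) and lost its call under 15 alternatives. The scaffolds *Pdzk1* (-0.09, FDR = 0.266) and *Pdzd3* (-0.08, FDR = 0.368) and the linker *Ezr*, for ezrin (0.05, FDR = 0.557), were not called by edgeR. In this list 1 of 10 genes was higher and 3 were lower.

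The other lists were mixed in direction. Of 7 tested genes for further Na,K-ATPase and FXYD subunits, *Fxyd5* (log2 fold change 0.28) was higher and *Fxyd1* (-0.43) lower, and *Fxyd5* and *Fxyd1* lost their calls under 15 and 13 alternatives. Of 8 tested SLC4 genes, *Slc4a7*, for a sodium-bicarbonate cotransporter (0.40), and *Slc4a9*, a transporter of intercalated cells (0.36), were higher. *Slc4a1*, the chloride-bicarbonate exchanger of intercalated and red blood cells (-0.59), *Slc4a5* (-0.96, at 1.304 and 0.664 CPM) and *Slc4a8* (-0.32) were lower. The call for *Slc4a8* was lost under 5 alternatives, among them the replicate block and each set of SK-124-treated mice alone.

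Of 11 tested carbonic anhydrases other than the members, *Car15*, which is membrane-bound like *Car4* (0.35), was higher. *Car7* (-0.63), *Car8* (-0.64), which lacks enzyme activity, and *Car12* (-0.37), another membrane-spanning form, were lower. The levels of *Car7* (2.84 and 1.84 CPM in vehicle and treated mice) and *Car8* (2.76 and 1.76 CPM) were low. *Car12* went from 231 ± 18.7 to 179 ± 17.1 CPM (SD, n = 6 each) with an FDR of 0.000715 by edgeR. Among 9 tested SLC26 and SLC13 genes, *Slc26a4*, for pendrin (0.27), was higher and the sulfate transporter *Slc26a2* (-0.39) lower. *Slc13a2*, for NaDC1, the luminal counterpart of *Slc13a3*, fell from 28.9 ± 3.34 to 23.0 ± 1.84 CPM (SD, n = 6 per group), or -0.33 on the log2 scale with an FDR of 0.00446 by edgeR, so that both dicarboxylate carriers of the proximal tubule were lower.

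Markers of other cell types were examined beside these results. No distal convoluted tubule marker of 4 was called, and 1 of 5 thick ascending limb markers was higher. Of the collecting duct principal cell markers 1 of 5 was higher and 2 were lower, and of the intercalated cell markers, which include *Slc26a4* and *Slc4a1*, 2 of 5 were higher and 1 was lower. Of 4 podocyte markers 1 was higher, and 1 of 4 endothelial and 1 of 7 immune and blood markers were lower. The summed TPM of the immune and blood markers ranged from 809 to 1965 in vehicle mice and from 749 to 1262 in treated mice. The endothelial sum ranged from 119 to 155 in vehicle mice and from 79.2 to 138 in treated mice, with means of 137 ± 14.5 and 108 ± 23.0 TPM (SD, n = 6 each). In CPM, which carries the TMM scaling, the means of this sum were closer, at 278 ± 31.7 and 236 ± 35.1 (SD, n = 6 each). The called endothelial gene was *Kdr* (log2 fold change -0.85, FDR = 0.000647, edgeR). For *Emcn* and *Plvap* the values were -0.24 (FDR = 0.176) and -0.21 (FDR = 0.126), and for *Pecam1* 0.07 (FDR = 0.697). The summed TPM of the intercalated cell markers ranged from 52.9 to 64.0 and from 46.3 to 65.9. No marker of any list was at 0, and the part of these cells in the results was not tested.

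**Figure D5:**
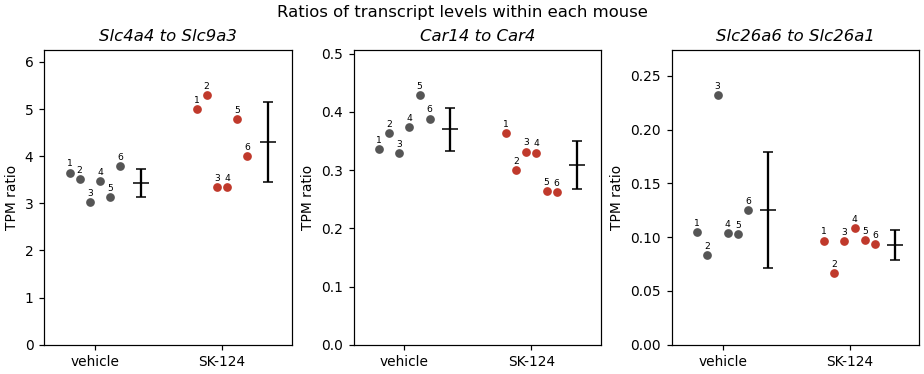
TPM ratios of pairs of genes within each library, 1 point per mouse numbered as labelled, in 6 vehicle mice (grey) and 6 SK-124-treated mice (red), with the mean and SD of each group as a bar and axes from 0. *Car14* to *Car4* is below the vehicle median in 6 of 6 treated mice, and vehicle mouse 3 stands away from its group for *Slc26a6* to *Slc26a1*.

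For each member, the genes whose log2 CPM followed it most closely over the 12 mice, after the group means were subtracted, were listed as a description among 13008 genes. For *Slc4a4* these were *Car12* (Pearson r = 0.97) and *Ahcyl2* (r = 0.97), and for *Slc9a3* *Bcor* and *Slc2a13* (r = 0.96 and 0.95). *Slc13a3* varied most like *Foxn3* and *Crebbp* (r = 0.96 and 0.93), and *Car14*, with the lowest values, like *Nap1l5* and *Sike1* (r = 0.90 and 0.88). The values were 0.94 and 0.92 for *Atp1b1* with *Dot1l* and *Gm38393*, 0.96 and 0.96 for *Fxyd2* with *Lsm4* and *Gins4*, and 0.93 and 0.93 for *Car4* with *Cndp2* and *Farsb*. They were 0.92 and 0.92 for *Slc26a6* with *Esrra* and *Gm15823*, and 0.93 and 0.91 for *Slc26a1* with *Mllt10* and *Ksr2*. The points of each correlation share their libraries, and the pairs were picked as the highest of many, so these values say nothing of control.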

How the data were processed

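Whole-kidney RNA-Seq of 6 vehicle and 6 SK-124-treated mice (BGISEQ500, 1 library per mouse) was analysed. The submitters' processing notes name FastQC, STAR 2.7.2b, RSEM 1.3.0, DESeq2 and mm10. The authors deposited RSEM gene tables with expected counts (estimated reads per gene, not normalized), and with TPM and FPKM, which the authors' RSEM run scaled to effective length and library total. The use of strand is not given in the sources used here. GENCODE M21 (GRCm38) held 55141 of the 55401 identifiers, 54349 of them in the same version, and gave the coordinates.

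Expected counts were rounded, scaled with TMM, filtered with filterByExpr and compared over 14159 genes by the quasi-likelihood test of edgeR with Benjamini-Hochberg adjustment (FDR). The common biological coefficient of variation was 0.101. Standard errors are the log2 fold change over the square root of F. TPM ratios were compared with two-sided exact permutation tests, adjusted over 5 ratios, of which 3 are given. 1 gene of the lists, with the other 2 ratios, is not reported here. The scripts were tested on simulated data. No pair of mice in a group agreed within sampling noise (smallest chi-square per degree of freedom 4.69 in 30 pairs).

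The members and gene lists were chosen with earlier results of these data known. Named were all members with the 2 genes most correlated with each (mean of at least 1 CPM, log2(CPM + 0.5)), called genes of the lists, and the ratio partners. Alternatives were RLE, library totals, DESeq2, no filter, at least 10 counts in every mouse, the replicate block, limma on log2(TPM + 1) and log2(TPM + 0.1), scaling without the 10 genes with the most counts, each mouse left out, and SK-124-treated mice 1 to 3 or 4 to 6 alone. Scaling to the proximal tubule markers was added after seeing the data. Ratios were also taken from FPKM and counts. Software was edgeR 4.0.16, DESeq2 1.42.0 and limma 3.58.1 in R 4.3.3, and scipy 1.17.1, pandas 2.3.3, numpy 2.4.6 and matplotlib 3.10.9 in Python 3.11.15.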

Additional observations from a re-analysis of the deposited data

Results flagged for a closer look

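Vehicle mouse 3 stood apart from the other 5 mice of its group by Dixon's test for *Fxyd2*, at 3087 CPM against a group median of 2206. It did so again for the TPM ratio of *Slc26a6* to *Slc26a1*, at 0.232 against a median of 0.104. SK-124-treated mouse 2 was apart for the same ratio, at 0.0666 against 0.0966. In all 24 groups of values were examined, and chance marks about 1 in 20 groups, or 1.2 of them.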

How the results depend on the processing

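*Slc13a3* was called lower under all 24 alternatives and *Car14* under 23. Members called higher numbered 1 (*Atp1b1*) with RLE and with DESeq2, and 0 to 1 with each mouse left out, the 1 arising without vehicle mouse 5 (FDR = 0.0377) or SK-124-treated mouse 6 (FDR = 0.0471). Members called lower numbered 4 on library totals and 1 with SK-124-treated mice 1 to 3 alone. With those mice 2298 genes and 10 listed genes were called, against 3453 and 18, and with mice 4 to 6 alone 11 listed genes. With limma on log2(TPM + 1) and log2(TPM + 0.1), *Slc9a3* was called lower (-0.38 and -0.39, FDR = 0.0349 and 0.0346), and 19.01% and 19.04% of called genes were higher. The signs of uncalled members turned as follows, with library totals first and both limma scales next: *Slc4a4* to -0.024, -0.09 and -0.091, *Fxyd2* to -0.082, -0.11 and -0.11, *Car4* to -0.10, -0.14 and -0.14, and *Slc26a1* to -0.065, -0.10 and -0.10. *Slc4a4* was -0.038 and *Slc26a1* -0.032 with mice 4 to 6 alone, and *Car4* -0.025 with mice 1 to 3 alone. With each mouse left out, *Fxyd2* ranged from -0.0094 to 0.12 and *Car4* from -0.026 to 0.041. With each mouse left out, the log2 ratio of *Car14* to *Car4* ranged from -0.32 to -0.22, reaching an adjusted exact permutation p of 0.0433 without SK-124-treated mouse 1. The causes were not tested.

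The replicate numbers name different mice. Correlations between the deviations of same-numbered mice ran from -0.131 to 0.217. In 2 of 6 pairs the same-numbered treated mouse was the one most correlated with the vehicle mouse, and the numbers were not taken as pairs. With the replicate block 3466 genes were called, *Car14* had an FDR of 0.0144 and *Slc13a3* of 0.00635 (edgeR), and no member's call changed. The listed genes *Slc4a8* and *Fxyd5* lost their calls, while again 6 listed genes were higher and 12 lower, so others gained calls. Depth limits mainly *Slc26a6*, with 66 to 116 expected counts.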
